A study of Mus musculus with 6 samples.

Results

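Secretory ducts fill their lumens by moving chloride and bicarbonate across the epithelium, and water follows through membrane pores. Chloride enters the cell from the blood side through cotransporters and exchangers, leaves on the lumen side through channels, and potassium channels keep the voltage that drives it. The same machinery is known for filling cysts in cystic kidney disease. Bicaudal C1, the product of Bicc1, binds RNA, and its loss in mice is known for kidney cysts and widened pancreatic ducts. The 9 genes described here, Cftr, Ano1, Slc12a2, Slc4a2, Slc4a4, Car2, Aqp1, Aqp5 and Kcnn4, were chosen by name as ion, water and bicarbonate transport genes of ducts, out of 24389 genes in each library. All 9 were found by symbol.

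RNA sequencing was done on dorsal pancreas taken at E13.5, on a mixed C57BL/6 and ICR background in every library. The groups were 3 wild-type (WT) and 3 Bicc1 knockout (KO) libraries. The labels give neither the knockout allele nor whether a library is 1 embryo or a pool, so the p-values reflect the spread among these libraries alone, which may be technical. The deposited values are a signal per gene with a floor of 0.01 and no stated unit, so depth is unknown and values of different genes are not ranked against each other. Bicc1 itself was 3.96 to 4.91 in the KO libraries and 18.2 to 19.7 in the WT libraries, which fits the labels. In whole organs, fewer cells of a type and less RNA per cell cannot be told apart.

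The libraries also fall on either side of the first principal component (57.3% of the variance), with KO 1, KO 2 and WT 3 on the first side and KO 3, WT 1 and WT 2 on the second. GC-rich genes were higher on the first side: Spearman's rho across genes between GC content and a library's deviation was 0.40 to 0.61 there and -0.66 to -0.19 on the second. For several genes, differences are therefore also given separately for the first side (KO 1 and KO 2 minus WT 3) and the second (KO 3 minus WT 1 and WT 2), or after a correction for GC content.

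None of the 6 genes tested passed for a difference between KO and WT. In 2 of the 9, the water channel genes Aqp1 and Aqp5, every KO value lay above every WT value, and in the other 7 the groups overlapped. KO lay wholly above WT in 7.67% of the genes tested and in 7.55% of the genes below the minimum for the test. The test needed a mean value of 1 or more, which 6 of the 9 reached, while Cftr, Aqp5 and Kcnn4 did not. Among the 6, limma on log2(value + 1) with Benjamini-Hochberg adjustment over 13911 genes called 0 at an adjusted p of 0.05, and 1 (Aqp1, higher in KO) had an unadjusted p under 0.05. Over all genes tested, 0.0144% were called at the adjusted level and 10.3% at the unadjusted level, 5.89% of all with a higher KO value. The 6 had a median log2 change of -0.076, with 2 means higher and 4 lower in KO, beside a median of 0.014 over all genes tested. The same median was 0.013 within the first side and -0.003 within the second.

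**Figure D1:**
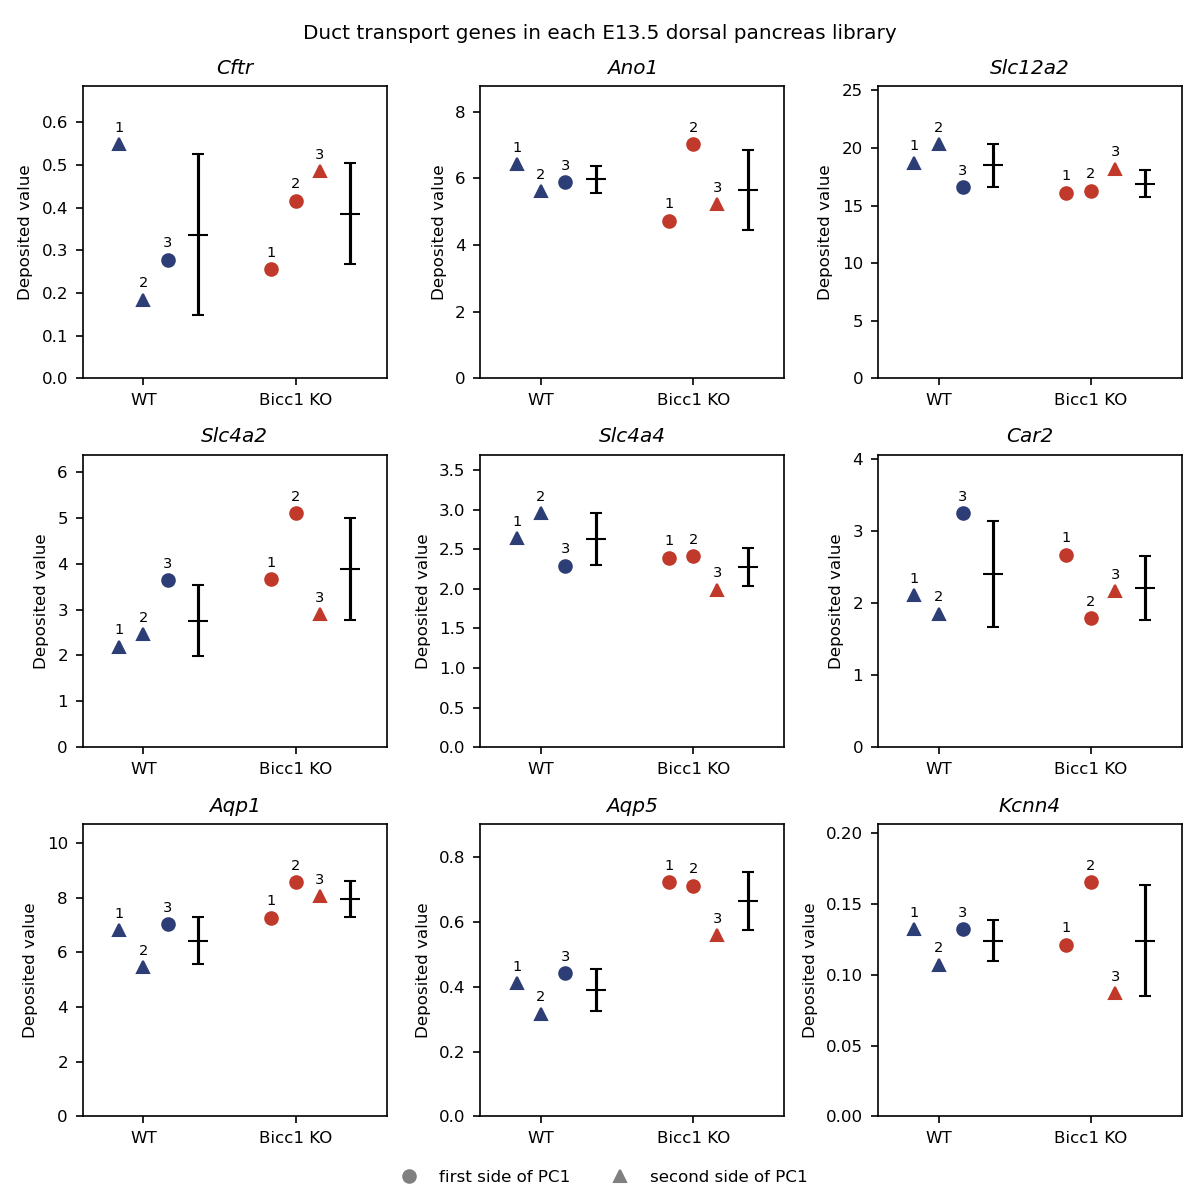
Deposited value (y axis, no stated unit, starting at 0) of each of the 9 genes in the 3 WT and 3 Bicc1 KO libraries. Numbers are replicates, circles and triangles mark the first and second side of the first principal component (PC1), and bars are mean ± SD. The KO points lie above all WT points for Aqp1 and Aqp5, and the groups overlap for the other genes.

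Aqp1 and Aqp5 encode water channels, which let water cross a membrane along an osmotic gradient. Aqp1 is also known in capillary endothelium and red cells, and Aqp5 in the lumen-side membrane of salivary and other secretory glands. The stretches of 250 bases before their transcription starts are shown because these were the genes whose groups did not overlap. They are from RefSeq on GRCm38.p6, both on the plus strand, at chr6:55336049-55336298 for Aqp1 and chr15:99590778-99591027 for Aqp5, and run 5′ to 3′ with each GC box (GGGCGG, either strand) in capitals.
Aqp1: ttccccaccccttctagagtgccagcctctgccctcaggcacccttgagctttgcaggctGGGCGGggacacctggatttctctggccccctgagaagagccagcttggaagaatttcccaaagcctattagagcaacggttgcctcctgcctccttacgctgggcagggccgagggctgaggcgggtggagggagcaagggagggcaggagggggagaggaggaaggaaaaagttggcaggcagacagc
Aqp5: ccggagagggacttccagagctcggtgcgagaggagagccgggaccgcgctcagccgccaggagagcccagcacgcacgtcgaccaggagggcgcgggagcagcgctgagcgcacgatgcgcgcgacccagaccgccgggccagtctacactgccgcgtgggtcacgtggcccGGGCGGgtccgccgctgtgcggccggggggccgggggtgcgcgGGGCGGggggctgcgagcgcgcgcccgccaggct
The Aqp1 window holds 1 GC box and is 62.0% G and C, and the Aqp5 window holds 2 and is 78.4% G and C, higher than 98.1% of 32851 such windows. A GC box is present in 32.7% of all windows. The TATA box letters TATAAA (12.4% of windows) and the CCAAT box letters CCAAT (33.8%) are in neither window, on either strand. These matches describe the letters only. The table of promoters holds 7 of the 9 genes, and Slc12a2 and Car2 are not among them. Among genes whose groups overlapped, GC boxes numbered 6 for Cftr, 4 for Ano1, 1 for Kcnn4 and 0 in the Slc4a2 windows. G and C made up 76.4% of the Cftr window, and 82.0% and 48.8% of the Slc4a4 windows. These traits are therefore not particular to the aquaporin genes.

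Aqp1 (ENSMUSG00000004655) was 7.27, 8.56 and 8.05 in KO 1, KO 2 and KO 3. For WT 1, WT 2 and WT 3 it was 6.81, 5.46 and 7.04. Every KO value exceeded every WT value, narrowly so for KO 1 over WT 3, and the same held for 7.67% of the genes tested. The KO mean was 7.96 ± 0.649 and the WT mean 6.43 ± 0.852 (SD, n = 3 each), so KO stood at 124% of WT. The log2 change was 0.27 (SE 0.107, 95% interval 0.024 to 0.52), with an unadjusted p of 0.036 and an adjusted p of 0.47 in limma, and Aqp1 did not pass. The difference was 0.15 within the first side and 0.35 within the second. Its transcript has a GC content of 54.9%, above 79.6% of tested genes, and after GC correction the log2 change was 0.14 (SE 0.084, adjusted p 0.65 in limma). Without WT 2, which had the lowest value, the log2 change was 0.18.

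Of 8 endothelial markers tested beside Aqp1, 7 had a higher and 1 a lower KO mean, and in 5 every KO value lay above every WT value. Over all genes tested, 7448 of 13911 had a higher KO mean, and 7.67% had every KO value above every WT value. The median log2 change of the 8 was 0.133 within the first side and 0.405 within the second. For all genes tested these medians were 0.025 and 0.015. No endothelial marker was at the floor. Their summed value was 101 to 124 in KO and 86.4 to 91.8 in WT, without overlap. Pecam1, an adhesion molecule of endothelial cells, was 40.8, 43.4 and 54.1 in KO and 35.7, 34.9 and 36.8 in WT. Cdh5, the endothelial cadherin, was 21.3, 22.3 and 23.8 in KO and 17.4, 18.1 and 17.8 in WT. None passed limma over all genes (lowest adjusted p 0.47). Of 8 tested erythroid markers 6 had a higher KO mean, and the summed value of all 11 overlapped between the groups, with a range of 2114 to 3713 in KO and 1752 to 3356 in WT. The part of either cell type in the Aqp1 difference was not tested.

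Aqp5 (ENSMUSG00000044217) was 0.721, 0.711 and 0.559 in KO 1, KO 2 and KO 3. The WT libraries had 0.410, 0.317 and 0.441. Every KO value exceeded every WT value, as was so in 7.55% of the 10478 genes with a mean value under 1. The KO mean was 0.664 ± 0.0905 and the WT mean 0.389 ± 0.0643 (SD, n = 3 each), so KO stood at 170% of WT, at values below the minimum for the test. Fitted without that minimum, the log2 change was 0.26 (SE 0.057, 95% interval 0.12 to 0.40), with an unadjusted p of 0.0037 and an adjusted p of 0.49 in limma; 9.41% of all 24389 genes had an unadjusted p under 0.05 in that fit and 0.0041% an adjusted one. With a pseudocount of 0.1 in place of 1 it was 0.64 (SE 0.172, adjusted p 0.51 in limma), since a pseudocount of 1 shrinks the change of a gene this low. The difference was 0.25 within the first side and 0.19 within the second, so KO was the higher group on each. KO also had the higher rho with GC content on each side. The Aqp5 transcript has a GC content of 64.0%, above 99.7% of tested genes, and after GC correction the log2 change was 0.082 (SE 0.075, adjusted p 0.66 in limma).

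The chloride channels of the lumen side did not differ beyond the spread between libraries. Cftr (ENSMUSG00000041301), the chloride and bicarbonate channel mutated in cystic fibrosis, was 0.256, 0.416 and 0.485 in KO 1, KO 2 and KO 3. Its values in WT 1, WT 2 and WT 3 were 0.548, 0.184 and 0.278. The highest and the lowest value were both WT libraries, so the KO values lay inside the WT range. The KO mean of 0.386 ± 0.118 and the WT mean of 0.337 ± 0.189 (SD, n = 3 each) gave a log2 change of 0.058 (SE 0.112, 95% interval -0.22 to 0.33 in limma with no minimum, adjusted p 0.87). A pseudocount of 1 shrinks both the change and the interval of a gene this low. With a pseudocount of 0.1 the log2 change was 0.21 (SE 0.341, adjusted p 0.84 in limma). Without WT 2, and with a pseudocount of 1, the log2 change was -0.025. Its level was under the minimum for the test in every library.

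Ano1 (ENSMUSG00000031075) encodes a chloride channel opened by calcium, which also marks interstitial pacemaker cells of the gut. KO 1, KO 2 and KO 3 had values of 4.73, 7.02 and 5.23, against 6.42, 5.62 and 5.88 for WT 1, WT 2 and WT 3. KO 2 was the highest library and KO 1 the lowest, with the WT libraries between KO 3 and KO 2. KO averaged 5.66 ± 1.2 and WT 5.97 ± 0.408 (SD, n = 3 each). The log2 change was -0.079 (SE 0.130, 95% interval -0.38 to 0.23), with an adjusted p of 0.79 in limma. Leaving out KO 1 gave 0.022 and leaving out KO 2 gave -0.22, and the GC correction gave -0.15. Kit, which those pacemaker cells also express, was 6.68 to 7.33 in KO and 6.78 to 7.23 in WT.

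Among the carriers that load the cell with ions, Slc12a2 (ENSMUSG00000024597) encodes the cotransporter of sodium, potassium and chloride that brings chloride in on the blood side. It was 16.1, 16.3 and 18.2 in KO 1, KO 2 and KO 3. WT 1, WT 2 and WT 3 had 18.7, 20.3 and 16.6. The values were apart by side of the first component and not by genotype: every library of the second side lay above every library of the first, as in 15.2% of the genes tested. The KO mean was 16.9 ± 1.2 and the WT mean 18.5 ± 1.86 (SD, n = 3 each), a log2 change of -0.13 (SE 0.093, 95% interval -0.34 to 0.091) and an adjusted p of 0.56 in limma. Within the sides the difference was -0.032 and -0.091, and after GC correction the log2 change was -0.065.

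Slc4a2 (ENSMUSG00000028962) encodes an exchanger of chloride for bicarbonate. KO 1, KO 2 and KO 3 had values of 3.66, 5.09 and 2.90, against 2.19, 2.46 and 3.64 for WT 1, WT 2 and WT 3. KO 1, KO 2 and WT 3 were the high libraries, so all values of the first side lay above all values of the second, as in 19.4% of the genes tested. KO averaged 3.88 ± 1.11 and WT 2.76 ± 0.776 (SD, n = 3 each), so KO stood at 141% of WT, with overlapping groups. The log2 change of 0.37 (SE 0.195, 95% interval -0.084 to 0.83) had an adjusted p of 0.48 in limma.

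For Slc4a2 the difference was 0.20 within the first side and 0.23 within the second. Its transcript has a GC content of 58.3%, above 93.2% of tested genes, and after GC correction the log2 change was 0.15 (SE 0.104, adjusted p 0.66 in limma). It was 0.22 with the side as a term and 0.20 without KO 2. Exons of Fastk, on the opposite strand, cover 13.7% of its exonic bases in the GRCm38 annotation, and these libraries keep no strand information. Fastk, looked up because of this overlap, was 7.70, 10.4 and 6.46 in KO and 5.08, 4.97 and 8.31 in WT, with KO 1, KO 2 and WT 3 again the high libraries. Whether reads were shared between the genes was not tested.

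Slc4a4 (ENSMUSG00000060961) encodes the cotransporter that carries sodium and bicarbonate into duct cells from the blood side. KO 1, KO 2 and KO 3 had values of 2.39, 2.41 and 1.99, against 2.64, 2.95 and 2.29 for WT 1, WT 2 and WT 3. WT 3 lay below KO 1 and KO 2, so the groups overlapped by 1 library. The KO mean was 2.27 ± 0.24 and the WT mean 2.63 ± 0.326 (SD, n = 3 each), so KO stood at 86.3% of WT. The log2 change was -0.15 (SE 0.10, 95% interval -0.38 to 0.083), with an adjusted p of 0.53 in limma. The difference was 0.047 within the first side and -0.34 within the second, so the lower KO level was seen on the second side alone. Whether the sides differ in this was not tested. The change was -0.087 without KO 3 and also without WT 2.

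Car2 (ENSMUSG00000027562) encodes a carbonic anhydrase, the enzyme that makes bicarbonate from carbon dioxide, known in ducts and also in red cells. KO 1, KO 2 and KO 3 had values of 2.67, 1.79 and 2.16, against 2.11, 1.85 and 3.24 for WT 1, WT 2 and WT 3. WT 3 and KO 1 were high and the other 4 libraries lay close together. KO averaged 2.21 ± 0.441 and WT 2.40 ± 0.738 (SD, n = 3 each), a log2 change of -0.072 (SE 0.167, 95% interval -0.46 to 0.32) and an adjusted p of 0.85 in limma. Its sign depended on single libraries, with 0.023 without KO 2 and 0.098 without WT 3. Within the sides the difference was -0.41 and 0.085.

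WT 3 and KO 1 were also the highest libraries for the red cell genes Slc4a1 and Hbb-y. Slc4a1, the anion exchanger of red cells, was 2.08 in WT 3 and 1.80 in KO 1, and 1.30 to 1.42 in the other libraries. The embryonic globin gene Hbb-y was 904 in WT 3 and 1087 in KO 1, against 502 to 652 in the others. Alas2, the haem synthesis enzyme of red cells, was 8.04 in WT 3, 9.0 in KO 1 and 8.65 in KO 2, so KO 2 was high for Alas2 and low for Car2. The part of red cells in the Car2 values was not tested.

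Kcnn4 (ENSMUSG00000054342) encodes a potassium channel opened by calcium, and it was under the minimum for the test in every library. KO 1, KO 2 and KO 3 had values of 0.121, 0.165 and 0.0868, against 0.132, 0.107 and 0.132 for WT 1, WT 2 and WT 3. KO 2 and KO 3 were the highest and the lowest library, and all WT values lay between them. KO averaged 0.124 ± 0.0394 and WT 0.124 ± 0.0146 (SD, n = 3 each). At this level the log2 change on log2(value + 1) has a 95% interval of -0.068 to 0.069 in limma without the minimum, on a scale that compresses values this far below the pseudocount.

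**Figure D2:**
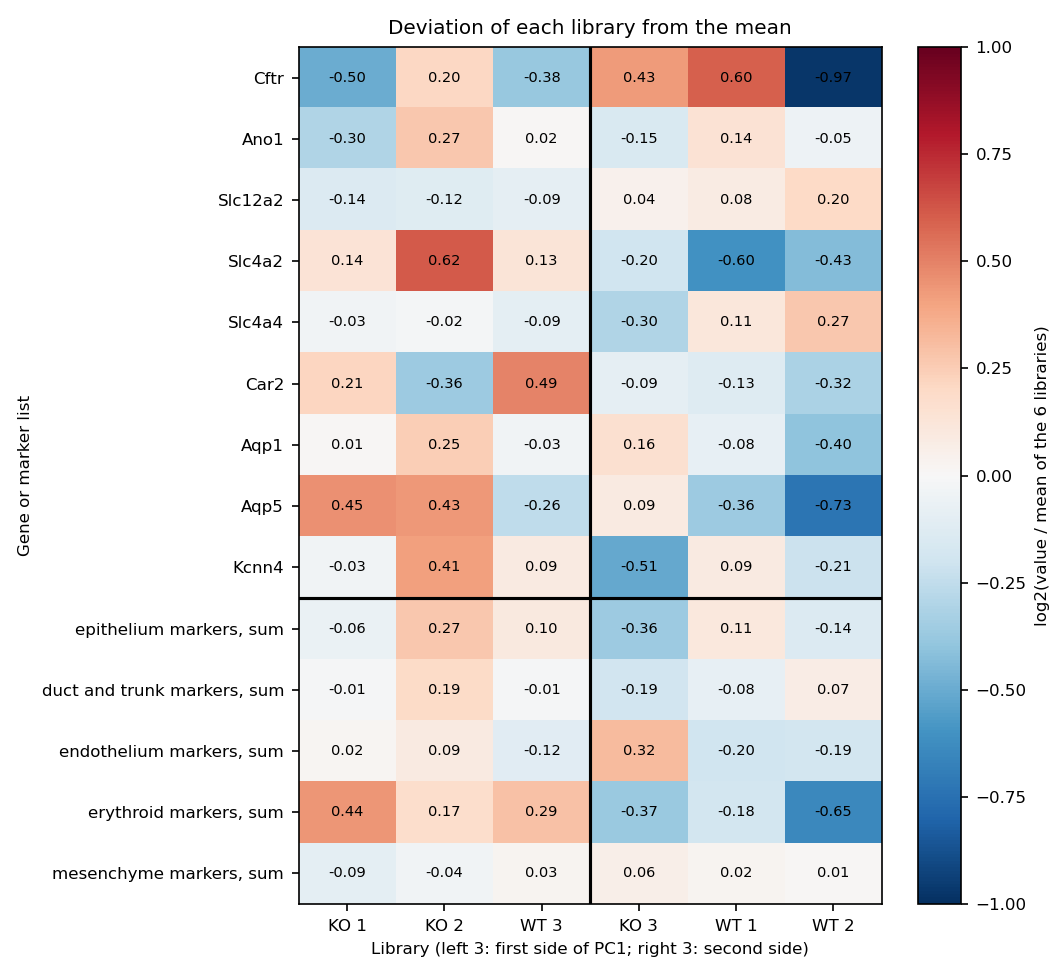
Deviation of each library (x axis, first side of the first principal component left of the line, second side right) as log2 of the value over the mean of the 6 libraries, for the 9 genes (top) and the summed values of 5 marker lists (below). Slc4a2 is above its mean in KO 1, KO 2 and WT 3 and below it in KO 3, WT 1 and WT 2, Slc12a2 is the reverse, and the endothelial sum is above its mean in the KO libraries and below it in the WT libraries.

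Markers of epithelium were present in all libraries, and which cells held the transport RNA was not tested. Epcam, an epithelial adhesion molecule, was 44.8 to 64.3 in KO and 52.4 to 60.7 in WT, and Sox9, a factor of progenitors and ducts, was 42.3 to 57.3 in KO and 54.8 to 60.2 in WT. Krt19, listed with Sox9 and also as a mesothelial marker, went the other way, at 4.71 to 8.83 in KO and 2.41 to 5.47 in WT. Its unadjusted p was 0.046 and its adjusted p 0.47 in limma. Of the 10 duct and trunk markers, 4 had a higher and 6 a lower KO mean. The summed value of 10 epithelial markers was 339 to 527 in KO and 397 to 470 in WT, and that of 10 duct and trunk markers was 1330 to 1733 in KO and 1432 to 1594 in WT. KO 2 was the highest and KO 3 the lowest library for both sums, as for Kcnn4, and KO 2 was also the highest for Ano1, Slc4a2 and Aqp1. Most of the duct and trunk sum came from 1 gene, Spp1, at 995 to 1351 in KO and 1054 to 1211 in WT. Spp1 too was highest in KO 2 and lowest in KO 3, so the order of that sum may not hold for the other duct markers. WT 1 and WT 3 lay above KO 1 in the epithelial sum and below it in Aqp5. The part of the epithelial level in the Aqp5 values was not tested.

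Other genes of ion and water transport were read from 8 lists of 87 genes, of which 80 were in the files and 40 were tested. In limma 0 of the 40 passed over all genes (lowest adjusted p 0.47), and 1, Kcne3, had an unadjusted p under 0.05. The KO mean was higher in 23 and lower in 17, with a median log2 change of 0.030 beside 0.014 for all genes tested. The groups were apart with KO higher in 2 genes, Kcne3 and Wnk4, and with KO lower in 2, Ahcyl1 and Ahcyl2. Over all genes tested these shares were 7.67% and 8.77%.

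**Figure D3:**
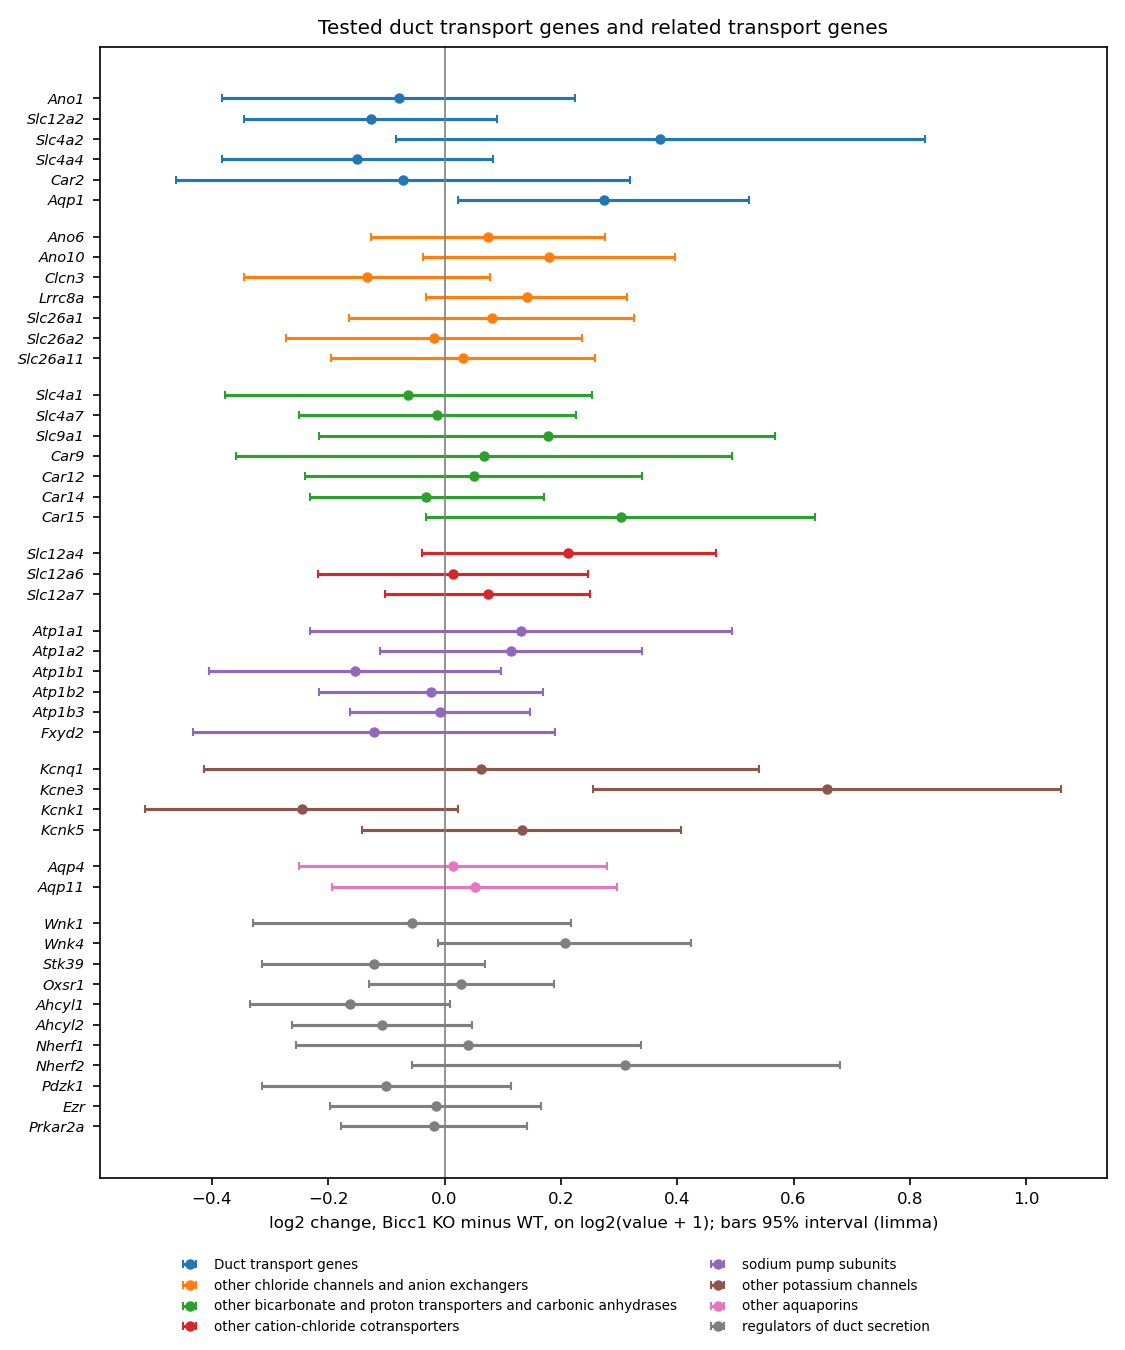
Log2 change (x axis, Bicc1 KO minus WT on log2(value + 1)) with its 95% interval in limma for the 6 tested genes of the 9 and the 40 tested genes of the related lists, coloured by list. The intervals of Aqp1 and Kcne3 lie above 0 before adjustment and all others include 0.

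Potassium channels other than Kcnn4 included the gene with the lowest p of these lists. Kcne3 encodes a small partner subunit of epithelial potassium channels and was 1.49, 1.95 and 2.81 in KO 1, KO 2 and KO 3. For WT 1, WT 2 and WT 3 it was 1.07, 0.634 and 1.10. The log2 change was 0.66 (SE 0.172), with an unadjusted p of 0.0058 and an adjusted p of 0.47 in limma. It was 0.365 within the first side and 1.051 within the second, where KO 3 was the only KO library. Kcnq1, the channel Kcne3 can join, was 2.90 to 5.65 in KO and 2.94 to 4.01 in WT. Kcnk1, a potassium leak channel, was 13.1, 16.3 and 11.8 in KO and 17.0, 15.6 and 16.3 in WT. Its difference was -0.15 within the first side and -0.437 within the second.

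Regulators of duct secretion had 4 higher and 7 lower means in KO among 11 tested. Wnk4, a kinase of the pathway that sets the activity of chloride cotransporters such as Slc12a2, was 4.69, 5.36 and 5.06 in KO and 3.72, 4.62 and 4.37 in WT (adjusted p 0.47 in limma). Its groups were apart by a narrow gap. Ahcyl1, whose protein binds and stimulates the Slc4a4 cotransporter, was 42.3, 41.2 and 43.1 in KO and 49.2, 49.6 and 43.5 in WT (adjusted p 0.47 in limma). The Ahcyl1 difference was -0.059 within the first side and -0.192 within the second. Ahcyl2, a relative of Ahcyl1 chosen after its values were seen, was 11.2, 11.3 and 10.8 in KO and 11.8, 12.6 and 11.9 in WT (adjusted p 0.50 in limma). Sctr, the receptor for the duct hormone secretin, was 0.0517, 0.023 and 0.0344 in KO and 0.01, 0.0182 and 0.0197 in WT. These values are near the floor and under the minimum for the test. Every KO value of Sctr lay above every WT value, as in 7.55% of the genes with a mean value under 1. The choice of Kcnq1 and Sctr was made after seeing their values.

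The other lists gave no gene past an unadjusted p of 0.05. Among other chloride channels and anion exchangers 5 of 7 tested means were higher in KO, with Lrrc8a, a subunit of channels opened by cell swelling, at 141 to 159 in KO and 135 to 141 in WT. Among other bicarbonate and proton carriers and carbonic anhydrases 4 of 7 were higher, and Car15 was 1.97, 1.04 and 1.79 in KO and 1.05, 1.16 and 1.02 in WT. The 3 other cation and chloride cotransporters tested all had a higher KO mean, with Slc12a4 at 2.30 to 2.91 in KO and 1.81 to 2.39 in WT. Of the 6 tested sodium pump subunits 2 were higher, and Atp1b1 was 61.5 to 78.7 in KO and 71.8 to 82.5 in WT. The 2 other aquaporins tested, Aqp4 and Aqp11, had log2 changes of 0.015 and 0.052, and the 3 subunits of the epithelial sodium channel were all under the minimum.

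**Figure D4:**
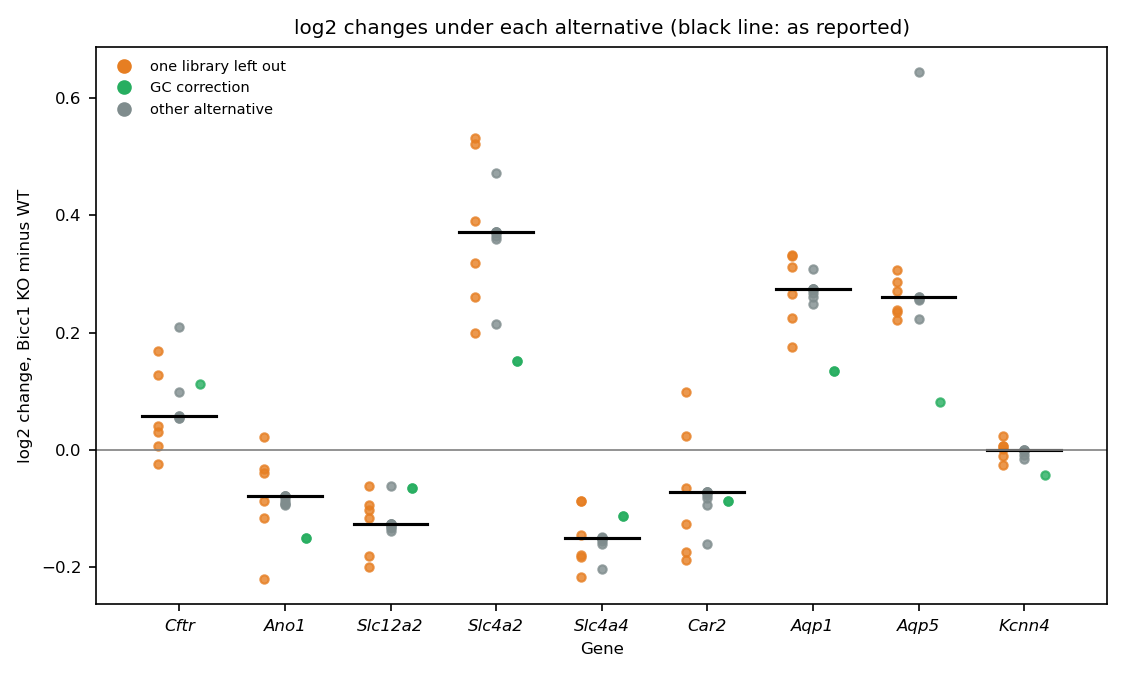
Log2 change of each of the 9 genes (y axis, Bicc1 KO minus WT) as reported (black line) and under each alternative (points; orange with 1 library left out, green after GC correction, grey otherwise). Slc4a2, Aqp1 and Aqp5 stay above 0 and Slc12a2 and Slc4a4 below 0 in all alternatives run, Cftr, Car2 and Ano1 cross 0 when 1 library is left out, and the GC correction gives the lowest points for Slc4a2, Aqp1 and Aqp5.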

How the data were processed

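Per the labels' protocols, RNA of dorsal pancreata was made into TruSeq RNA v2 libraries, a kit that does not mark strand. The submitters' processing notes name CASAVA 1.82, Bowtie 0.12.7 and build mm9; how reads were counted and normalized, and on which annotation, is not given in the sources used here. Each deposited file holds a signal per Ensembl gene (24389 genes, sums of 674295 to 716255), used without scaling. Depth is unknown. Symbols were found for 92.8% of identifiers. For the 13911 genes with a mean of at least 1, limma 3.58.1 in R 4.3.3 compared KO with WT (log2(value + 1), two-sided, variance trend, no other term), with Benjamini-Hochberg adjustment at 0.05. GC content is that of the longest GENCODE M21 transcript, for 96.2% of tested genes, and its correction was a loess per library with span 0.3. The members, lists and tests were chosen with earlier results of these data known. From each related list up to 3 genes with the lowest p, from each marker list up to 2, and fixed defining markers could be named. The test was checked on data simulated with independent noise for each gene and library. These hold no shared component, so the check does not cover libraries that differ along the first component, as here. Tables and figures used Python 3.11.15.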

Additional observations from a re-analysis of the deposited data

How the results depend on the processing

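In limma, 2 genes passed over all genes as reported, 1 with no filter on low values, 4 after GC correction and 1 after GC correction with the replicate number as a block. With the replicate block alone 0 passed, with 656 genes at an unadjusted p of 0.05. Leaving out 1 library gave 1 to 7 genes: 1 without KO 1, KO 3, WT 1 or WT 3, and 7 without KO 2. The cause was not tested. Of the 6 transport genes tested 0 passed at an adjusted p of 0.05 in any alternative run, nor did any of the 9 in the fits with no filter, with 0 to 2 at an unadjusted p of 0.05 and a lowest adjusted p of 0.17. The direction reversed for Cftr without WT 2 (-0.025), for Car2 without KO 2 (0.023) and WT 3 (0.098), and for Ano1 without KO 1 (0.022). With 1 library left out, these ranged from -0.025 to 0.17 for Cftr, -0.19 to 0.098 for Car2 and -0.22 to 0.022 for Ano1. Kcnn4 had no direction, with log2 changes of -0.043 to 0.024. The log2 change of Slc4a2 ranged from 0.15 to 0.53, of Aqp1 from 0.14 to 0.33, of Aqp5 from 0.082 to 0.64, of Slc12a2 from -0.20 to -0.062 and of Slc4a4 from -0.22 to -0.087. The GC correction and the pseudocount of 0.1, each without the filter on low values, were added for Cftr, Aqp5 and Kcnn4 after seeing the data. In the scalings, the replicate block, the side term and the fits without 1 library these 3 genes have values but no test, and they were not run under the other alternatives that keep a filter. Deviations of same-numbered libraries correlated at -0.22, -0.40 and -0.64 across genes. Each deviation was taken from the mean of its group of 3, and the libraries also differ along the first component. These correlations therefore cannot show whether replicate numbers pair the samples. Depth is unknown, which leaves the counting error of Cftr, Aqp5 and Kcnn4 unmeasured.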
